A study of Mus musculus with 6 samples.

Results

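Integrins are adhesion receptors built from an alpha and a beta chain, and 10 of their genes were followed in cells sorted from fetal mouse liver. The genes were a list by symbol, drawn up with earlier results of these data known (Itga1, Itga4, Itga5, Itga6, Itga7, Itga8, Itga9, Itgav, Itgb1 and Itgb5), and all 10 were found among the 54532 genes of the deposited table. There were 3 libraries from livers of embryonic day 18 (E18) and 3 from embryonic day 16 (E16), lettered A, B and C at each age. Every embryo was of the CD-1 strain and carried Sm22-Cre/ROSA26RYFP. This is a Cre driven by the Sm22 (Tagln) promoter with a Cre-dependent yellow fluorescent reporter. The sort was for eYFP-positive cells, and so for any cells that promoter had ever marked. Whether RNA of other cells was kept as well was not tested. Livers were dissociated with collagenase IV and Dispase before sorting. The labels name no treatment. They leave unsaid whether libraries of an age came from different litters, pools or embryos, so a p-value here reflects library-to-library spread that may be technical in part.

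An integrin alpha chain largely decides what a receptor binds, and the beta chain carries much of the link to the actin skeleton through talin and kindlin. The beta 1 chain (Itgb1) pairs with all 8 alpha chains described here, and Itgav also pairs with beta 5 (Itgb5) and other beta chains. In liver, stellate cells, fibroblasts and smooth muscle use these receptors to hold collagen, laminin and fibronectin, and blood cell precursors use some of them to stay in the fetal niche.

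Markers of several cell types were present. The summed mesenchymal and erythroid markers were higher in every E18 library than in any E16 library, the hepatocyte sum was lower, and the megakaryocyte and the leukocyte sums overlapped. Summed over 15 mesenchymal markers, the level was 2233 to 5867 TPM at E18 and 398 to 795 TPM at E16, where TPM is a transcript level corrected for gene length and scaled to the same total in each library. The sum over 15 erythroid markers was larger than that in every library, at 12250 to 20478 TPM at E18 and 6622 to 8393 TPM at E16, and that over 15 hepatocyte markers was 403 to 1043 and 2272 to 9435 TPM. Megakaryocyte markers summed to 118 to 202 TPM at E18 and 68.7 to 124 TPM at E16, macrophage and leukocyte markers to 59.1 to 136 and 46.2 to 64.9 TPM, endothelial markers to 18.6 to 26.3 and 27.7 to 41.3 TPM and cholangiocyte markers to 21.1 to 37.4 and 9.89 to 19.7 TPM. Of the tested markers in these lists, 13 of 15 mesenchymal, 2 of 15 erythroid, 0 of 7 megakaryocyte, 2 of 5 leukocyte and 1 of 3 cholangiocyte genes rose, 6 of 15 hepatocyte genes fell, and the lone endothelial gene tested did not pass (limma, adjusted p under 0.05). Over all tested genes, 3.08% rose and 0.387% fell by the same test. In the leukocyte list Cd68 was at 34.6 to 108 TPM at E18 and 41.2 to 55.9 TPM at E16. Lyz2 and S100a9 rose (limma adjusted p = 0.0444 and 0.0492). The pan-leukocyte marker Ptprc was at no more than 0.143 TPM in any library, and Adgre1 is listed at 0 in all 6. Itgam and Gp1bb are listed at 0 too, but exons of other genes cover 68.7% and 92.9% of their exon length, so those zeros are uncertain. The mesenchymal sum was highest in E18 library B, and among the E16 libraries it was highest in library C (795 TPM). The hepatocyte sum was highest in E16 library B. Tagln itself was at 2.86 to 3.37 TPM at E18 and 0.606 to 1.40 TPM at E16, and exons of other genes cover 67.9% of its exon length. The part of these cell types in the integrin levels was not tested. In bulk samples, fewer cells of a type and less RNA per cell cannot be told apart.

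Itgb1, Itga4 and Itga5 were the most abundant of the 10 integrin genes at both ages, and none of these 3 passed the test. Itga8, the alpha chain of the nephronectin and fibronectin receptor of smooth muscle, stellate cells and other mesenchyme, rose at E18 and was the only member to pass the test. All 10 members passed the filter on low values, 1 was called higher and 0 lower, against 3.08% of the 17824 tested genes called higher and 0.387% called lower. The median log2 fold change of the members was 1.26, against 0.07 over all tested genes. In 8 of 10 members every E18 library lay above every E16 library, which 18.4% of all tested genes did. Members share libraries and are not replicates of one another, so these counts describe the 10 genes only. The plots of levels by library and of the change of each gene show all 10.

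**Figure D1:**
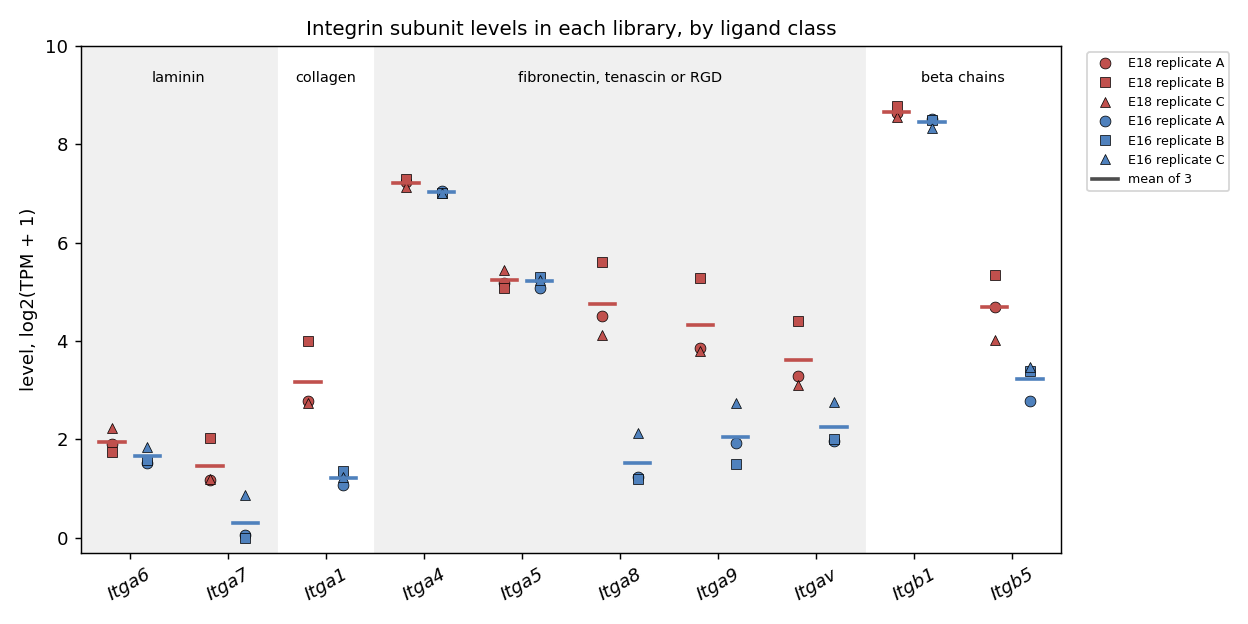
Level of each integrin subunit as log2(TPM + 1), by ligand class; each point is a library (E18 left of E16, 3 each) and each bar is the mean of the 3 log values. Itga4, Itga5 and Itgb1 are high at both ages, while the E18 points of Itga8 (16.5 to 48.0 TPM) lie clear of its E16 points (1.29 to 3.35 TPM).

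**Figure D2:**
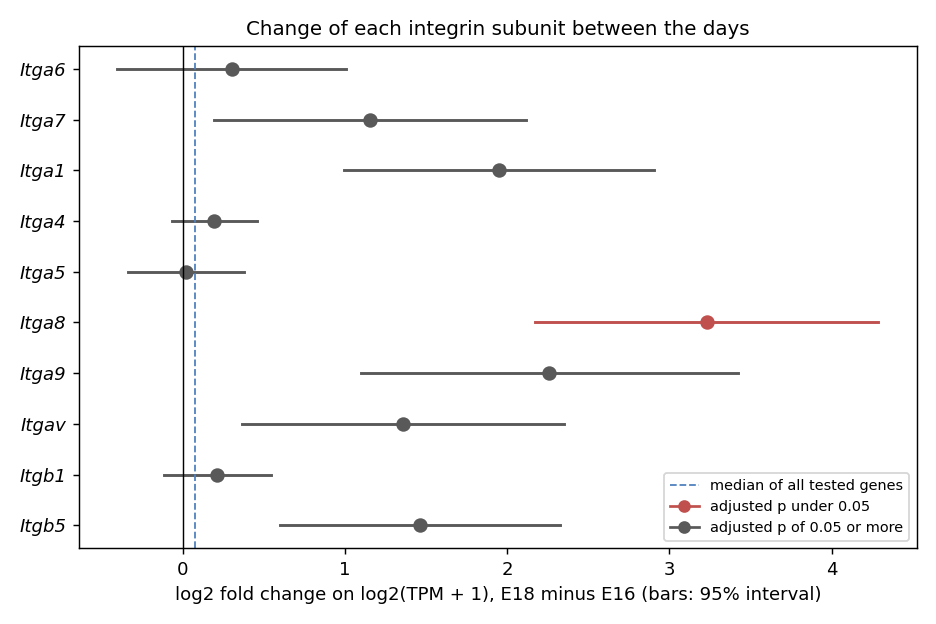
Log2 fold change of each subunit on the log2(TPM + 1) scale, E18 minus E16, with its 95% interval from limma; the dashed line is the median of all tested genes at 0.07. Itga8 (3.23) is the member with an adjusted p under 0.05; the intervals of Itga4, Itga5, Itga6 and Itgb1 include 0.

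For 8 of the 10 members, RefSeq gave a promoter window on GRCm38.p6, the assembly of mm10. The 250 bases before the start are printed for Itga8 and Itga1, the members with the smallest p, and for Itgb1 and Itga4, the most abundant ones. Sequences run 5′ to 3′ on the gene's strand; capitals mark a GC box (GGGCGG or its complement) and, in Itgb1, the TEAD motif GGAATG.
Itga8, chr2:12301945-12302194, minus strand: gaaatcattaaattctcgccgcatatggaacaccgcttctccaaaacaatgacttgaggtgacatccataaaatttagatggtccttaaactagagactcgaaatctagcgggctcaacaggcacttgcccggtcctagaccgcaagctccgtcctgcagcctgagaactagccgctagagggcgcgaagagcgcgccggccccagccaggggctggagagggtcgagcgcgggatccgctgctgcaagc
Itga1, chr13:115101965-115102214, minus strand: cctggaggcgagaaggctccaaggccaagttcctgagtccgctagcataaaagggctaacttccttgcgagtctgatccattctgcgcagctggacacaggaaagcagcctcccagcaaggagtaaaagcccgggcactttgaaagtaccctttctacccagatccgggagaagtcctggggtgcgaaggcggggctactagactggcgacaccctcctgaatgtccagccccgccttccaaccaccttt
Itgb1, chr8:128685404-128685653, plus strand: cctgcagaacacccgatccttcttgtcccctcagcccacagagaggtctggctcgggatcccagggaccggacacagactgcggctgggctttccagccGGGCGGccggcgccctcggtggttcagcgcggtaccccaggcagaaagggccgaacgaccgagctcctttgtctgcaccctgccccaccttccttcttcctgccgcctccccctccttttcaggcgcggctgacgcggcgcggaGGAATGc
Itga4, chr2:79255176-79255425, plus strand: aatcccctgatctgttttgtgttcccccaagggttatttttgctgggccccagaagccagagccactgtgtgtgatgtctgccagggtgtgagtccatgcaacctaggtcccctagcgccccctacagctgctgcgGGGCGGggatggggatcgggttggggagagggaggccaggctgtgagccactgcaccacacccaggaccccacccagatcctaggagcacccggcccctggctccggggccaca

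Each window was searched on both strands for 6 motifs, none of which overlapped another in these windows. The GC box was found in Itga4, Itga5, Itgb1 and Itgb5, and not in Itga1, Itga8, Itga9 or Itgav; 32.7% of 32851 windows of this length hold it. GGAATG was found in Itgb1 and in 12.6% of all windows. No member window held CCAAT (33.8% of all windows), TATAAA (12.4%), the AP-1 motif TGANTCA (6.75%) or the CArG box of serum response factor (1.47%). A match of letters is a description of the window, not a binding site. The window of Itga9 starts inside the gene as GENCODE draws it, at an internal transcript start.

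Both laminin-binding alpha chains were at low levels. Itga6 (chromosome 2, 71745616 to 71858416, mm10, plus strand), which binds laminins with beta 1 or beta 4, had 2.74, 2.33 and 3.69 TPM in E18 libraries A, B and C, against 1.88, 2.002 and 2.60 TPM in E16 libraries A, B and C. The ranges overlapped: E18 library B was below E16 library C. Its log2 fold change was 0.30 ± 0.30 (SE; limma adjusted p = 0.647), with a 95% interval of −0.40 to 1.01, and it turned to −0.088 under quantile normalization.

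Itga7 (chromosome 10, 128933818 to 128958282, plus strand), the laminin receptor chain known best from skeletal and smooth muscle, had 1.26, 3.05 and 1.27 TPM in E18 libraries A, B and C, against 0.0364, 0 and 0.821 TPM in E16 libraries A, B and C. These values rest on 45, 113 and 57 recovered reads at E18 and on 2, 0 and 43 reads at E16. E16 library C held nearly all of the E16 signal. All E18 values were above all E16 values, but the gene did not pass (log2 fold change 1.16 ± 0.41; limma adjusted p = 0.164). The value depends on how low levels are treated: it was 0.37 at a pseudocount of 5, 2.96 at 0.1 and 4.59 with limma voom on recovered reads, where the limma adjusted p was 0.0497. The sum of both chains was 4.78 ± 0.711 TPM at E18 and 2.45 ± 0.845 TPM at E16 (SD, n = 3 each).

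The collagen-binding member, Itga1 (chromosome 13, 114953096 to 115101964, minus strand), pairs with beta 1 and binds collagen IV and other collagens. It had 5.88, 15.04 and 5.66 TPM in E18 libraries A, B and C, against 1.12, 1.55 and 1.35 TPM in E16 libraries A, B and C. E18 library B stood apart from the other E18 libraries, while the E16 values were close together, and the ages did not overlap. The ratio of the means was 6.61, and the log2 fold change, 1.95 ± 0.41, had a limma adjusted p of 0.0505, just outside the threshold. Without E18 library B it was 1.54.

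Among the fibronectin-, tenascin- and RGD-binding alpha chains, Itga8 (chromosome 2, 12106632 to 12301922, minus strand) had 21.7, 48.0 and 16.5 TPM in E18 libraries A, B and C, against 1.37, 1.29 and 3.35 TPM in E16 libraries A, B and C. The lowest E18 library was well above the highest E16 library. The ratio of the means was 14.3, and the log2 fold change was 3.23 ± 0.45, with a 95% interval of 2.17 to 4.29 and a limma adjusted p of 0.0314. The recovered reads numbered 673 to 1615 at E18 and 63 to 160 at E16, so the difference does not rest on a handful of reads. Its promoter window, printed above, held none of the motifs searched, and neither did that of Itga1.

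Itga9 (chromosome 9, 118606690 to 118901003, plus strand), whose receptor binds tenascin-C, Svep1 and an alternatively spliced fibronectin segment, had 13.5, 38.0 and 12.97 TPM in E18 libraries A, B and C, against 2.82, 1.84 and 5.66 TPM in E16 libraries A, B and C. Itgav (chromosome 2, 83724397 to 83806916, plus strand), the chain of RGD receptors that bind vitronectin and the latent form of TGF-beta, had 8.73, 20.3 and 7.67 TPM at E18 and 2.89, 3.04 and 5.79 TPM at E16. For both genes E18 library B was the highest library and E16 library C the highest of its age, and the ages did not overlap. Neither passed: the log2 fold change of Itga9 was 2.26 ± 0.49 with a limma adjusted p of 0.0549, and that of Itgav 1.36 ± 0.42 with a limma adjusted p of 0.122. Without E18 library B the log2 fold changes were 1.77 and 0.95.

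Itga4 and Itga5 were the most abundant alpha chains. Itga4 (chromosome 2, 79255426 to 79333123, plus strand) binds Vcam1 and fibronectin and is known for its role on blood cell precursors. It had 149, 157 and 139 TPM in E18 libraries A, B and C, against 132, 128 and 128 TPM in E16 libraries A, B and C. The ages did not overlap in TPM as deposited, yet the step was small (log2 fold change 0.20 ± 0.11, limma adjusted p = 0.390, 95% interval −0.07 to 0.46). Itga5 (chromosome 15, 103344286 to 103366763, minus strand), the chain of the classical fibronectin receptor, had 35.1, 32.7 and 42.8 TPM at E18 and 33.0, 38.5 and 37.0 TPM at E16. Its ranges overlapped, the log2 fold change was 0.02 ± 0.15 (limma adjusted p = 0.960; 95% interval −0.34 to 0.38), and its sign turned under 3 of the scaling alternatives.

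The beta chains behaved differently from each other. Itgb1 (chromosome 8, 128685654 to 128733200, plus strand) was the most abundant member in every library, with 398, 440 and 375 TPM in E18 libraries A, B and C, against 364, 362 and 320 TPM in E16 libraries A, B and C. All E18 values were above all E16 values by a small margin in TPM as deposited (log2 fold change 0.21 ± 0.14, limma adjusted p = 0.463, 95% interval −0.12 to 0.54). Itgb5 (chromosome 16, 33829665 to 33949338, plus strand), which pairs with Itgav in a vitronectin receptor, had 24.7, 39.7 and 15.2 TPM at E18 and 5.89, 9.53 and 10.1 TPM at E16. The ages did not overlap, and the log2 fold change was 1.46 ± 0.37, with a limma adjusted p of 0.0742 that did not pass. It passed without E18 library C (limma adjusted p = 0.0461).

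The order of levels differed between the ages below the top 3. At both ages Itgb1, Itga4 and Itga5 came first by mean TPM, and the ranges of Itgb1 and Itga4 did not meet those of the next gene. At E18 Itga8 came next, with a range that overlapped those of Itga5 above it and Itgb5 below it. At E16 Itga8 came lower, between Itga6 and Itga1, and its range overlapped both. From Itga5 down to Itga1 at E18, each gene overlapped its neighbour in the order, so that order is loose. Itga7 had the lowest mean at both ages. At E18 its range overlapped that of Itga6, and in E18 library B Itga7 was the higher of the pair (3.05 against 2.33 TPM).

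Within a library, shares of the alpha chains do not depend on the scaling of the library as a whole. Itga4 made up 62.6%, 49.6% and 60.6% of the summed TPM of the 8 alpha chains in E18 libraries A, B and C, against 75.4%, 72.6% and 69.3% in E16 libraries A, B and C. Itga8 made up 9.12%, 15.2% and 7.19% at E18, against 0.782%, 0.731% and 1.82% at E16. Itga9 took 7.78% ± 3.67 at E18 and 1.91% ± 1.04 at E16, and Itga1 took 3.23% ± 1.32 and 0.751% ± 0.123 (SD, n = 3 each). The shares of Itga4 and Itga5 were lower in every E18 library than in any E16 library, those of Itga1, Itga7, Itga8, Itga9 and Itgav were higher, and that of Itga6 overlapped. Relative to Itgb1, Itga4 kept nearly the same ratio, at 36.8 ± 0.967 TPM per 100 TPM of Itgb1 at E18 and 37.2 ± 2.41 at E16, with overlapping ranges. Itga8 stood at 6.91 ± 3.48 TPM per 100 TPM of Itgb1 at E18 and 0.593 ± 0.393 at E16.

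**Figure D3:**
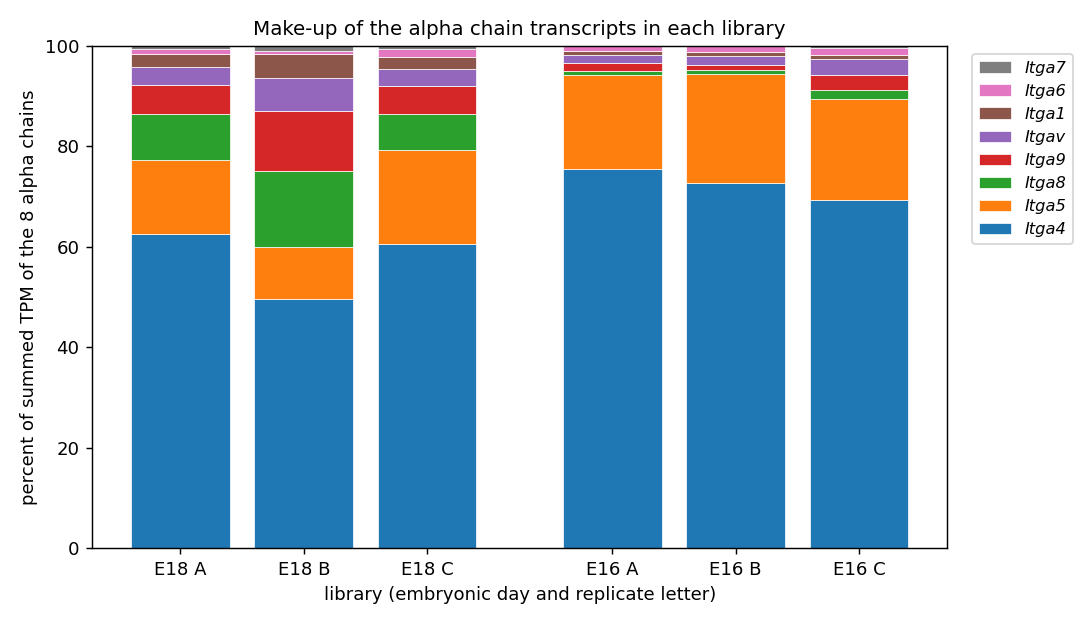
Each bar is a library, and its segments are the percent of the summed TPM of the 8 alpha chains taken by each chain. Itga4 takes 49.6% to 62.6% at E18 and 69.3% to 75.4% at E16, and the Itga8 segment is wider in each E18 library (7.19% to 15.2%) than in any E16 library (0.731% to 1.82%).

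Set against the mesenchymal markers of the same library, the members did not all stand alike. Per 1000 TPM summed over the 15 mesenchymal markers, Itga8 had 7.93, 8.17 and 7.40 TPM in E18 libraries A, B and C, against 3.45, 2.67 and 4.22 TPM in E16 libraries A, B and C. It was the single member above its E16 range on this measure, and the E18 libraries were close to each other, library B included. Single markers of the sum differed, however. The ratio of E18 to E16 means was 16.0 for Rgs5, 15.5 for Tcf21 and 12.1 for Cygb, against 14.3 for Itga8. The other markers had lower ratios, such as 5.96 for the abundant Col1a1. The place of Itga8 therefore depends on which markers lead the sum. Itga1, at 2.42 ± 0.230 TPM at E18 and 2.58 ± 0.785 TPM at E16 per 1000, and Itga9, at 5.74 ± 0.767 and 6.01 ± 1.90 TPM, overlapped between the ages, as did Itga7. Itgav was lower, at 3.36 ± 0.149 TPM per 1000 at E18 and 6.95 ± 0.564 at E16, and Itgb5 was lower too, at 7.53 ± 1.30 and 15.8 ± 3.60. Itga4, Itga5, Itga6 and Itgb1 were also below their E16 ranges, Itgb1 at 130 ± 48.5 TPM per 1000 at E18 and 689 ± 261 at E16. Collagens make up much of this sum; with the 12 markers that are not collagens, the same members were above, below or overlapping, and Itga8 had 4.20 ± 0.348 TPM per 100 TPM of markers at E18 and 2.23 ± 0.538 at E16. Per 1000 TPM summed over the erythroid markers, Itga4 had 7.27, 7.99 and 11.4 TPM at E18 and 19.98, 15.2 and 17.0 TPM at E16. On this measure Itga5 and Itgb1 were lower at E18 too, Itga1 and Itga8 were higher, and the other members overlapped. Globins lead this sum, Hba-a1 alone at 8188 of 17462 TPM on average at E18. Ratios of E18 to E16 means ran from 0.767 for Epor to 3.26 for the globin Hba-a2, with 1.07 for Klf1, against 1.15 for Itga4 itself. These ratios are descriptions, with no test.

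**Figure D4:**
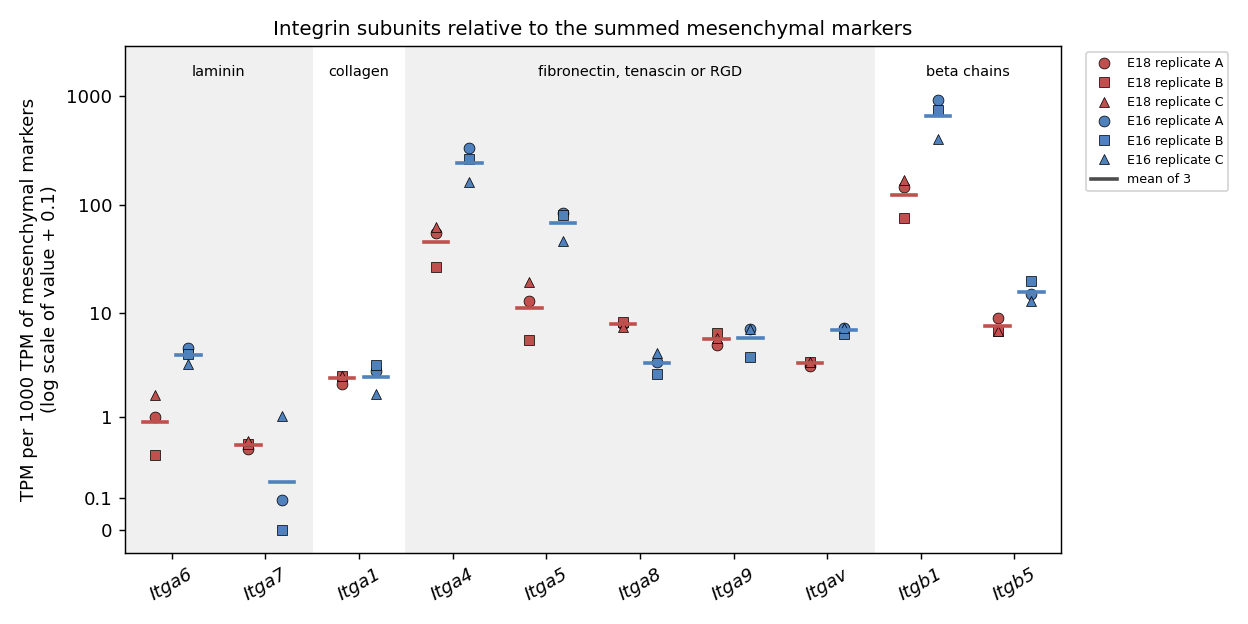
TPM of each subunit per 1000 TPM summed over 15 mesenchymal markers, on a log scale of the value + 0.1, in each library (E18 left of E16); bars are means of the 3 log values. Itga8 lies higher at E18 (7.40 to 8.17) than at E16 (2.67 to 4.22), Itga1 and Itga9 overlap, and Itga4, Itga5, Itga6, Itgav, Itgb1 and Itgb5 lie lower at E18.

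Of 17 other integrin genes, 9 passed the filter, 0 were called, and all 9 had positive log2 fold changes, with a median of 0.75. Those with the smallest p were Itgb3, at 17.3 ± 6.13 TPM at E18 and 5.64 ± 5.04 at E16, Itga2b, at 13.4 ± 3.89 and 6.82 ± 2.97, Itga11, at 6.26 ± 3.92 and 2.22 ± 0.788, and Itgae, at 4.98 ± 0.578 and 2.82 ± 1.30 (SD, n = 3 each). Limma adjusted p for these ran from 0.143 to 0.311. Itga2b and Itgb3 form the platelet fibrinogen receptor, and Itga11 is a fibroblast collagen receptor chain. Itgad is listed at 0 in every library. For the counts of this list and those below, the share over all tested genes was 3.08% called higher and 0.387% called lower. The median log2 fold change over all tested genes was 0.07, and the share of them with a positive change was not counted.

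Of 33 genes for the cytoplasmic side of integrin adhesions, 31 were tested, 4 rose and 0 fell, with a median log2 fold change of 0.67. Src, a tyrosine kinase of adhesions, was at 14.2 ± 4.52 TPM at E18 and 2.98 ± 1.18 at E16 (limma adjusted p = 0.0376). Parva, which binds integrin-linked kinase, had 15.8 ± 7.07 TPM at E18 and 2.92 ± 1.19 at E16 (limma adjusted p = 0.0418). The caveolae gene Cav1 was at 17.1 ± 4.95 and 4.62 ± 1.61 TPM, and the actin crosslinker Flna at 216 ± 87.8 and 76.8 ± 12.8 TPM (limma adjusted p = 0.0427 and 0.0444). The kindlins, picked after their values were seen, differed in level: Fermt3, the kindlin of blood cells, had 498 ± 37.8 TPM at E18 and 318 ± 84.6 at E16, Fermt2, that of most adherent cells, had 22.6 ± 12.9 and 7.30 ± 3.69, and Fermt1, the epithelial kindlin, is listed at 0. Neither Fermt3 nor Fermt2 passed (limma adjusted p = 0.126 and 0.134). Ilk is listed at 0.857 TPM or less in every library, but 89.7% of its exon length lies under other genes, so its value is uncertain.

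Of 11 laminin chains 6 rose and 0 fell, with a median log2 fold change of 1.63: Lama2, the alpha chain of muscle and mesenchymal laminin, was at 21.7 ± 13.7 TPM at E18 and 1.49 ± 0.879 at E16, Lamb1 at 42.2 ± 23.7 and 6.48 ± 1.61, Lamb2 at 34.0 ± 13.9 and 7.85 ± 2.51, and Lama5 at 27.9 ± 11.1 and 8.72 ± 0.681. Of 14 collagen genes 13 were tested and 12 rose, with a median of 2.59; Col6a1 was at 196 ± 83.9 TPM at E18 and 26.1 ± 7.07 at E16. Col6a2, Col6a3 and Col5a1 followed, with limma adjusted p of 0.0273 for all 4. Of 19 fibronectin-, tenascin- and RGD-type ligands 18 were tested, 6 rose and 0 fell. The leading ones were Postn, at 70.1 ± 34.7 TPM at E18 and 8.56 ± 2.46 at E16, the fibrillin gene Fbn1, at 125 ± 76.6 and 15.9 ± 6.40, Emilin1, at 97.3 ± 50.5 and 20.6 ± 3.85, and Thbs1, at 116 ± 59.4 and 14.1 ± 11.4. Ligands of single members, picked after their values were seen, differed: nephronectin (Npnt), a ligand of Itga8, was at 11.9 ± 1.55 TPM at E18 and 4.61 ± 1.23 at E16 and did not pass (limma adjusted p = 0.0510). Fibronectin (Fn1) had 157 ± 85.0 TPM at E18 and 67.7 ± 18.9 at E16, with a limma adjusted p of 0.142. Vitronectin (Vtn), a plasma protein made by hepatocytes, had 13.7 ± 4.76 TPM at E18 and 85.1 ± 71.8 at E16, with a limma adjusted p of 0.0650. Also picked later, tenascin-C (Tnc), a ligand of Itga9, rose (limma adjusted p = 0.0376). It had 62.0 ± 38.5 TPM at E18 and 9.68 ± 3.69 at E16. Svep1, another Itga9 ligand, did not pass (limma adjusted p = 0.0685). The collagen IV genes Col4a1, Col4a2 and Col4a5 rose and Col4a6 did not pass (limma adjusted p = 0.0358, 0.0314, 0.0433 and 0.134). Vcam1, a ligand of Itga4, was at 4.07 ± 2.31 TPM at E18 and 3.40 ± 0.930 at E16 (limma adjusted p = 0.895). The mesenchymal and hepatocyte marker sums given above moved the same ways as these ligands, except Vcam1, whose ranges overlapped. The part of the marker sums was not tested.

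Genes with the most similar pattern over the 6 libraries were sought for the 3 members with the smallest p, by Pearson correlation of log2(TPM + 1) among 7639 other named genes of at least 10 TPM on average. Closest to Itga8 were Lama2, Id3 and Frem1 (r of 0.999 each). Closest to Itga1 were Tpm4, Zswim4 and Meg3 (0.997, 0.997 and 0.996), and closest to Itga9 were Akap12, Mest and Cdh11 (0.9996, 0.997 and 0.995). The points are 6 libraries in 2 ages that share depth and cell make-up, so these values only describe likeness. Akap12 followed Itga9 library by library, with 14.0, 40.2 and 14.2 TPM in E18 libraries A, B and C, against 2.67, 1.84 and 5.66 TPM in E16 libraries A, B and C.

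The call of Itga8 was kept in 12 of 21 alternatives and lost in 9, among them the fits without E18 library A or B or without any one of the E16 libraries (limma adjusted p = 0.0584 to 0.1005). With limma voom on recovered reads, 6 members were called higher (Itga1, Itga7, Itga8, Itga9, Itgav and Itgb5), against 7.24% of all genes.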

How the data were processed

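RNA was measured in eYFP-sorted fetal liver cells, in 3 libraries at E18 and 3 at E16. The authors deposited a table of TPM for 54532 genes, made by them before deposit; per the submitters' processing notes, FastQC 0.11.7, HISAT2 2.1.0, Bowtie, HTSeq 0.5.4p3 and mm10 were used. Per the labels' protocols, the library kit was a stranded total RNA kit; how strand was counted, which annotation was used and how TPM was computed were not given in the sources used here. TPM hides depth, but TPM times merged exon length (GENCODE M21) was a whole multiple of a library's smallest step, within 0.05 reads, for 96.8% to 97.1% of values above 0, which gave 14586259 to 18280340 reads at E18 and 21128613 to 22624483 at E16. Replicates differed by at least 18.9 times sampling noise (a chi-square statistic over its degrees of freedom), so none looked like a repeat deposit.

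Symbols matched 54409 identifiers. Genes at 1 TPM or more in at least 3 libraries (17824) were fitted in R 4.3.3 by limma 3.58.1, using log2(TPM + 1) and limma's intensity trend, E18 minus E16; p-values were 2-sided, adjusted by Benjamini-Hochberg over all tested genes and called under 0.05. Fold changes on this scale understate those of low genes. The smallest p that exact permutation allows here is 0.1, so none is given for single values. The fit was also run on simulated data with independent spread in each gene and library, so that run does not cover shifts that many genes of a library share. The members, the lists and the ligand classes were chosen with earlier results of these data known. All members are described; of other lists, up to 4 tested genes with the smallest p are named, others being marked in the text as picked later. Exons of other genes cover 8.04% of the exon length of Itga4, 5.90% of Itgav, 5.05% of Itga8, 3.68% of Itga1 and 0.111% of Itga7; all these neighbours were at or below 2.13 TPM. Alternatives numbered 21. Whether the letters pair libraries is not known, and the main fit did not use them. Deviations from the age means of same-lettered libraries correlated at 0.102, −0.139 and −0.117, and those of differently lettered ones at −0.147 to 0.220. With so few libraries these values cannot decide it. Promoter sequences are RefSeq's. Figures were drawn with Matplotlib 3.10.9.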

Additional observations from a re-analysis of the deposited data

How the results depend on the processing

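Members called, 1 of 10 (Itga8) as reported, numbered 0 with no filter on low values, with the hepatocyte marker sum as covariate, and without both B libraries. They numbered 2 (Itga8 and Itga1) with scaling that left out all markers of other cell types and with no intensity trend. With array weights they numbered 4, and with limma voom on recovered reads 6. The fit with array weights called 4316 of 17824 genes, 2795 of them higher. It leaned on E18 library A (weight 3.62) and E16 library C (3.76), while the other libraries had weights of 0.484 to 0.605. Leaving out 1 library at a time gave 0 to 2 members: 2 without E18 replicate C, 0 in the other 5 fits. With the letter as a replicate block, 0 members and 0 genes were called. Over all genes the count, 618 as reported, was 347 at a pseudocount of 5, 406 with a filter of 5 TPM, 399 with quantile normalization, 4316 with array weights and 1465 with voom. It was 0 with no filter (4571 genes at an unadjusted p under 0.05), 0 with the covariate (1764), 0 with the replicate block (3195) and 0 without both B libraries (2846). Leaving out 1 library gave 0 to 664 genes; it was 55 without E16 replicate B, 664 without E18 replicate C and 0 in the others. In these fits the cause was not tested. The hepatocyte sum was lower in every E18 library than in any E16 library, so the covariate fit cannot well separate it from age. In that fit the log2 fold change of Itga8 was 2.81 with an SE of 0.88, against an SE of 0.45 as reported.

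The log2 fold changes of the members other than Itga5 and Itga6 kept their sign in every alternative. That of Itga8 ran from 2.17 to 3.79 and its limma adjusted p from 0.00359 to 0.433; that of Itga1 ran from 1.06 to 2.54 and that of Itga7, the widest, from 0.37 to 4.59. Itga5 turned to −0.068 with median-of-ratios scaling, −0.0086 with quantile normalization, −0.045 with scaling that left out the most abundant gene, mitochondrial genes and small RNAs, −0.040 with array weights and −0.00029 with voom. Leaving out 1 library gave −0.088 to 0.10 for Itga5. Itga6 turned to −0.088 with quantile normalization, where the median over all genes was −0.08, against 0.07 as reported. Depth limits Itga7 most, with 0 to 43 reads per E16 library.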
